A study of Arabidopsis thaliana with 4 samples.

Results

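The 47 genes described here are nuclear genes of Arabidopsis thaliana for light harvesting, for both photosystems and for the small subunit of Rubisco. They were taken by gene identifier from a table of 27654 genes. They comprise 6 LHCA genes and 15 LHCB genes for the antennae of photosystem I and photosystem II, 10 PSB and 12 PSA genes for photosystem subunits, and 4 RBCS genes. All 47 passed the filter on low values and were tested, and all 47 have an entry in the RefSeq annotation.

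Photosystem II splits water and photosystem I reduces ferredoxin. Each is a protein complex in the thylakoid membrane of the chloroplast and is fed by antenna proteins that bind chlorophyll. Rubisco fixes carbon dioxide in the Calvin cycle. The core reaction-centre proteins and the large subunit of Rubisco are encoded in the chloroplast, whereas the genes described here are transcribed in the nucleus and their proteins are imported. Several come in close copies whose products can stand in for each other, so copies were examined singly and as sums.

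The study compared whole seedlings of the Columbia ecotype in 2 groups of 2 RNA-seq libraries each. The control was the SKP2B::GUS line, which carries a GUS reporter under the SKP2B promoter. The other group was the fip1-2 mutant, named for FIP1, a factor of mRNA cleavage and polyadenylation. The labels give a growth time in Murashige and Skoog medium without its unit. They do not say whether fip1-2 also carries the reporter or whether replicates were separate cultures. The p-values therefore measure only the spread between these libraries, which may be technical. In limma that spread is moderated towards the trend over all genes at similar levels. Its p-values and standard errors (SE) therefore do not measure the spread of the gene's own libraries alone. Values are read counts per gene normalised by the authors, here called normalised reads, from 20874114 to 21104606 assigned reads per library. At this depth counting error limits the precision chiefly for genes with few reads, and the spread between libraries limits it for all genes. The FIP1 transcript itself (AT5G58040) stood at 1796 and 1912 normalised reads in control and at 5217 and 5145 in fip1-2, and its level does not check which part of the gene the mutation affects. Markers fitting the whole-seedling label were detected: the 8 root markers summed to 3346 and 3371 normalised reads in control and to 9304 and 7619 in fip1-2, and the 9 stomatal markers of the shoot to 3043 and 3240 and to 3360 and 3184. Of the 8 root markers, 7 rose and MYB36 fell. The root sum weighs PRP3 most, at 1159 and 1187 normalised reads in control and 4780 and 3860 in fip1-2. The smallest rise was that of CASP1, by 1.3-fold. Of the 8 stomatal markers tested, 3 rose and 3 fell, and none of either list was at 0 in all libraries. The sum of 4 seed storage markers was 233 and 47.6 in control and 4397 and 1568 in fip1-2, with SESA3 at 0 in both control libraries. The part of these markers in the results that follow was not tested, and in whole seedlings fewer cells of a type and less RNA per cell cannot be told apart.

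Transcripts of the antenna proteins were mostly higher in fip1-2, while those of the photosystem subunits moved in both directions. By limma with Benjamini-Hochberg adjustment over all genes tested (threshold 0.05), 25 of the 47 genes (53.2%) rose and 13 (27.7%) fell, against 27% of the 19931 genes tested that rose and 26.8% that fell, together 53.8%. With the values as deposited, the share that rose was above the background and the share that fell was close to it. Groups did not overlap for 45 genes, 29 upward and 16 downward, against 77.2% of all genes tested. Most differences were small. The median log2 fold change was 0.21, against -0.00 over all genes tested, 25 of the 38 genes called differed by less than 1.5-fold, and 3 differed by at least 2-fold, namely LHCB7, LHCB2.3 and RBCS1B. Fold changes are differences on the scale of log2(normalised reads + 2). The split depended on scaling. After quantile normalization, which forces the same distribution on every library, 14 of the 47 genes rose and 17 fell. The median log2 fold change was then 0.02, against -0.02 over all genes tested, so more genes fell than rose and the excess of rises did not hold. After scaling to the reads of all other genes 22 rose and 16 fell.

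**Figure D1:**
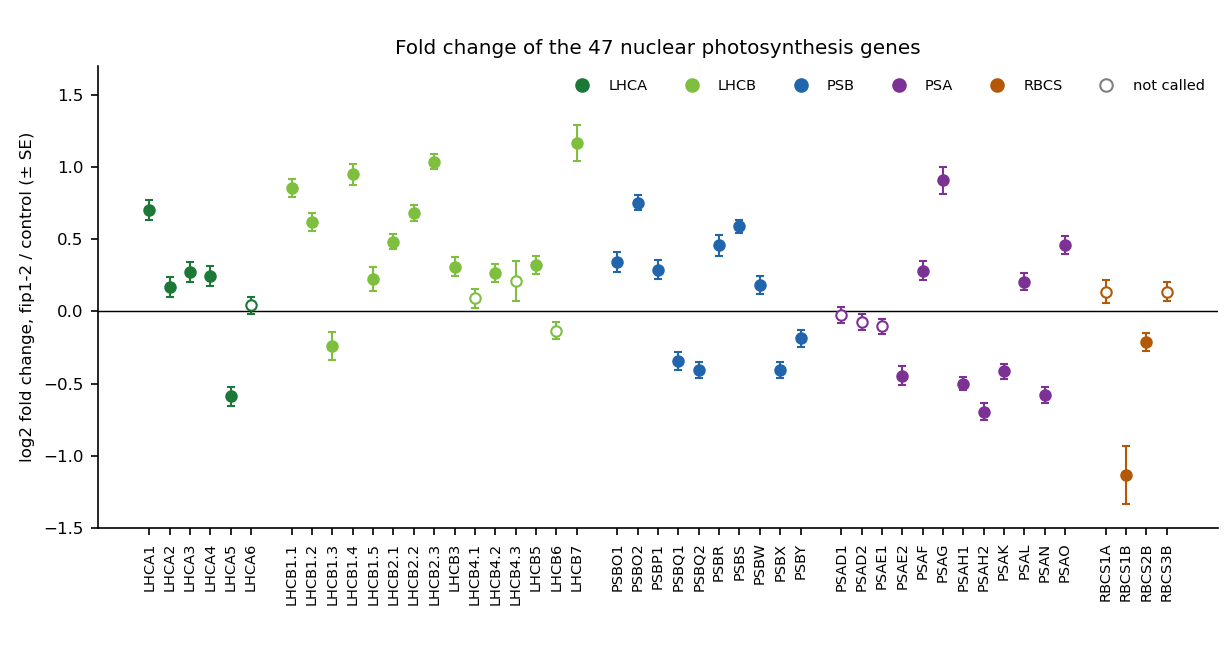
Log2 fold change (fip1-2 over control) with its standard error from limma for each of the 47 genes, coloured by gene group, with open circles for genes that did not pass the threshold. All LHCB2 genes lie above 0, PSAG stands at 0.91 among PSA genes that are mostly below 0, and RBCS1B is the lowest at -1.13.

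Among the antenna genes of photosystem I, 4 of 6 rose (66.7%) and LHCA5 fell, against 27% and 26.8% of all genes tested. Their median log2 fold change was 0.21. LHCA1 (AT3G54890), which pairs with LHCA4 in the antenna belt, stood at 95065 and 96337 normalised reads in control and at 152378 and 159228 in fip1-2. Both mutant libraries lay well above both controls, a 1.63-fold difference (log2 fold change by limma 0.70 ± 0.07 SE, adjusted p = 1.42e-06). Its partner LHCA4 (AT3G47470) went from 66347 and 68377 to 77239.6 and 82550.3 normalised reads, a smaller rise of 1.19-fold (limma adjusted p = 0.00599). LHCA3 rose by a similar 1.21-fold. After quantile normalization LHCA1 remained called at a log2 fold change of 0.31, while LHCA3 and LHCA4 lost their calls (0.02 and 0.04). LHCA2 rose by 1.13-fold with a limma adjusted p of 0.0476, but its fold change turned to -0.06 on the log2 scale after quantile normalization.

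LHCA5 (AT1G45474) and LHCA6 (AT1G19150) encode minor antenna proteins that link photosystem I to the NADH dehydrogenase-like complex, and both were expressed at much lower levels. Per kilobase of the longest annotated transcript, LHCA5 had 1049.8 and LHCA6 had 919 normalised reads in control, against 79751 for LHCA1. LHCA5 went from 1061 and 997 normalised reads in control to 693 and 673 in fip1-2, without overlap (log2 fold change by limma -0.59 ± 0.06 SE, adjusted p = 2.67e-06). LHCA6 stood at 1082 and 1053 in control and at 1125 and 1074 in fip1-2, and these ranges overlapped; its log2 fold change of 0.04 turned to -0.00 after quantile normalization and to -0.02 after scaling to the reads of all other genes. Quantile normalization left 1 LHCA gene higher and 1 lower. The LHCA2 call was also lost without control replicate 1 (log2 fold change 0.11), without fip1-2 replicate 1 (0.21) and without fip1-2 replicate 2 (0.13), and after scaling to the reads of all other genes (0.11) or removal of a trend with GC content and length (0.12); the LHCA4 call was lost without fip1-2 replicate 2 (0.20).

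Of the 15 LHCB genes, which encode the antenna of photosystem II, 11 rose (73.3%) and 1 fell (6.67%). Over all genes tested 27% rose and 26.8% fell. The median log2 fold change of the LHCB genes was 0.32. After quantile normalization 8 LHCB genes rose and 2 fell. LHCB1, LHCB2 and LHCB3 form the trimers of the major antenna, LHCII. In the LHCB2 family all 3 copies rose. LHCB2.3 (AT3G27690) went from 9163 and 9271 normalised reads in control to 18135 and 19761 in fip1-2, a 2.06-fold rise (log2 fold change by limma 1.04 ± 0.05 SE, adjusted p = 1.61e-09). LHCB2.2 (AT2G05070) went from 27521 and 28664 to 44391 and 45816, and LHCB2.1 (AT2G05100) from 17718 and 17484 to 23973 and 25269.8. The mutant libraries were above the controls for each copy, and the rise was largest for the copy with the fewest reads. LHCB3 (AT5G54270) rose by 1.24-fold, from 62112 and 61299 to 73698 and 79283 normalised reads (limma adjusted p = 0.00112). After quantile normalization LHCB2.1 and LHCB3 were still called, with smaller log2 fold changes of 0.31 and 0.11.

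The 5 LHCB1 copies moved unequally. LHCB1.1 and LHCB1.2, which lie next to LHCB1.3 on chromosome 1, rose by 1.81-fold and 1.54-fold (limma adjusted p = 4.65e-08 and 1.79e-06). LHCB1.4 (AT2G34430) on chromosome 2 went from 67952 and 69312 normalised reads to 126953 and 138217, a 1.93-fold rise (log2 fold change by limma 0.95 ± 0.07 SE, adjusted p = 6.25e-08). Its neighbour LHCB1.5 (AT2G34420) went from 225874 and 223874 to 251802 and 274027 (log2 fold change by limma 0.22 ± 0.09 SE, adjusted p = 0.0394). LHCB1.3 (AT1G29930) had the highest level of the 47 genes and was the only LHCB gene that fell, from 431027 and 456546 normalised reads to 370582 and 380379 (log2 fold change by limma -0.24 ± 0.10 SE, adjusted p = 0.0456). Its groups did not overlap, but the call was near the threshold. Both highly expressed copies came out at 0 after quantile normalization, in which they hold the top ranks in every library, and LHCB1.2 and LHCB1.4 at smaller log2 fold changes of 0.37 and 0.59. The LHCB1.3 call was lost on leaving out any 1 library, with log2 fold changes from -0.28 to -0.20, and the LHCB1.5 call was lost without control replicate 1 (0.23), control replicate 2 (0.22) or fip1-2 replicate 2 (0.16). It was also lost after scaling to the reads of all other genes (0.16). Removal of the trend with GC content and length turned the LHCB1.5 value to -0.49, took LHCB1.3 to -0.49 and left LHCB1.2 at 0.35, all 3 called.

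**Figure D2:**
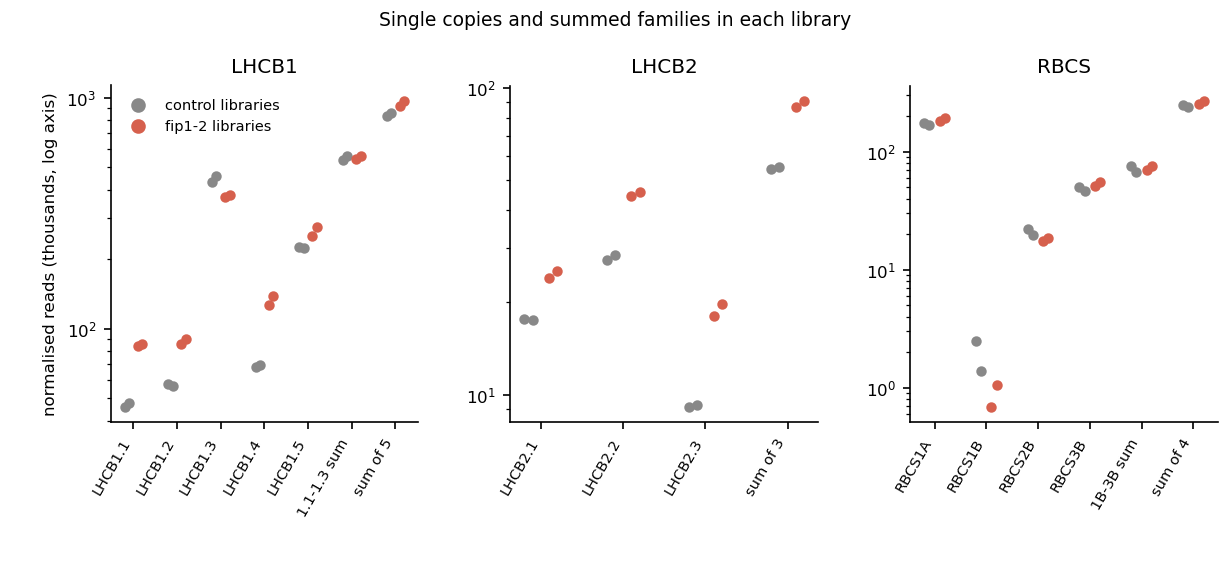
Normalised reads (in units of 1000, log axis) of single copies and of family sums in each of the 2 control and 2 fip1-2 libraries for LHCB1, LHCB2 and RBCS. In LHCB1 the copies with fewer reads were higher in fip1-2 while the sum of LHCB1.1 to LHCB1.3 overlapped between groups; in LHCB2 the copies and their sum were higher; the sum of 4 RBCS genes differed by 1.07-fold.

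The copies' shares of their family changed with these unequal rises. A share or ratio within a library does not depend on how the library was scaled. Of the reads of LHCB1.1 to LHCB1.3, LHCB1.3 made up 80.6% and 81.4% in control and 68.6% and 68.4% in fip1-2. The share of LHCB1.1 was 8.55 ± 0.0903% in control and 15.5 ± 0.0817% in fip1-2 (SD, n = 2), and that of LHCB1.2 was 10.4 ± 0.521% and 16.0 ± 0.235%. LHCB1.4 held 23.1% and 23.6% of its pair with LHCB1.5 in control and 33.5% in both fip1-2 libraries. The copy with more reads thus held a smaller share of its group in fip1-2 in both clusters. In the same direction, PSBO2 held 12.7 ± 0.231% of the PSBO reads in control and 16.3 ± 0.181% in fip1-2. The main copies LHCB4.1, PSAE2 and PSAH2 also held smaller shares in fip1-2. Other families did not follow this pattern. RBCS3B held 67.2% and 69.0% of the RBCS1B to RBCS3B reads in control and 73.9% and 73.8% in fip1-2. PSAD1 held 64.1% and 63.8% of its pair in control and 64.9% and 64.6% in fip1-2. The shares of LHCB2.2 and PSBQ2 overlapped between groups. Of 16 copy ratios examined, 14 did not overlap between the groups, 8 upward and 6 downward; for single genes the share without overlap was 77.2% of all tested, and several ratios share a gene. An exact two-sided permutation test of 2 against 2 libraries cannot go below p = 0.333, so none of these ratios could pass a threshold singly.

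Summing the copies changed what the families showed. LHCB1.1 to LHCB1.3 together stood at 534949 and 560603 normalised reads in control and at 540078 and 556107 in fip1-2. The ranges overlapped although each of the 3 copies was called (summed log2 fold change by limma 0.00 ± 0.10 SE, adjusted p = 0.994), and the sign of the sum turned to -0.03 without control replicate 1, to -0.02 without fip1-2 replicate 2 and to -0.06 after scaling to the reads of all other genes. LHCB1.4 and LHCB1.5 together rose from 293826 and 293186 to 378756 and 412244 (log2 fold change by limma 0.43 ± 0.09 SE, adjusted p = 0.0014). That sum came out at 0 after quantile normalization and at -0.06 after removal of the trend with length and GC content. The 3 LHCB2 copies together rose by 1.61-fold (log2 fold change by limma 0.69 ± 0.06 SE, adjusted p = 5.2e-07). All 5 LHCB1 copies together stood at 828776 and 853789 in control and at 918833 and 968351 in fip1-2, without overlap, and were not called (log2 fold change by limma 0.17 ± 0.13 SE, adjusted p = 0.293); edgeR, DESeq2 and a robust variance estimate in limma called them, with adjusted p = 0.0352, 0.00781 and 0.00546.

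The monomeric antenna proteins encoded by LHCB4, LHCB5 and LHCB6 sit between the trimers and the core of photosystem II. LHCB5 (AT4G10340) rose by 1.25-fold, from 50803 and 51800.3 normalised reads to 61947 and 66264 (limma adjusted p = 0.00062). LHCB4.2 rose by 1.2-fold (limma adjusted p = 0.00248), though its log2 fold change of 0.26 became -0.03 after removal of the trend with length and GC content. After quantile normalization LHCB5 and LHCB4.2 lost their calls (0.07 and 0.05). LHCB4.1 went from 65558 and 68201 to 68227 and 74259.9 and did not pass, and its log2 fold change of 0.09 became -0.12 after quantile normalization and -0.23 after removal of the trend, both called lower. LHCB6 (AT1G15820) was at 40260.5 and 39623 in control and at 35156 and 37623 in fip1-2, lower in both mutant libraries, and also did not pass (log2 fold change by limma -0.14 ± 0.06 SE, adjusted p = 0.0668); it passed after quantile normalization (-0.29), after scaling to the reads of all other genes (-0.20), after removal of the trend with length and GC content (-0.56) and with the robust variance estimate (adjusted p = 0.0253).

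LHCB4.3 and LHCB7 had by far the lowest levels of the 47 genes, at 80.8 and 81.9 normalised reads per kilobase in control. LHCB7 (AT1G76570), a rare antenna protein, went from 93.2 and 106 normalised reads to 228 and 222. It showed the largest rise of the set, 2.26-fold (log2 fold change by limma 1.17 ± 0.13 SE, adjusted p = 2.51e-06). LHCB4.3 (AT2G40100) went from 105 and 109 to 119.9 and 128 and did not pass (limma adjusted p = 0.215).

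**Figure D3:**
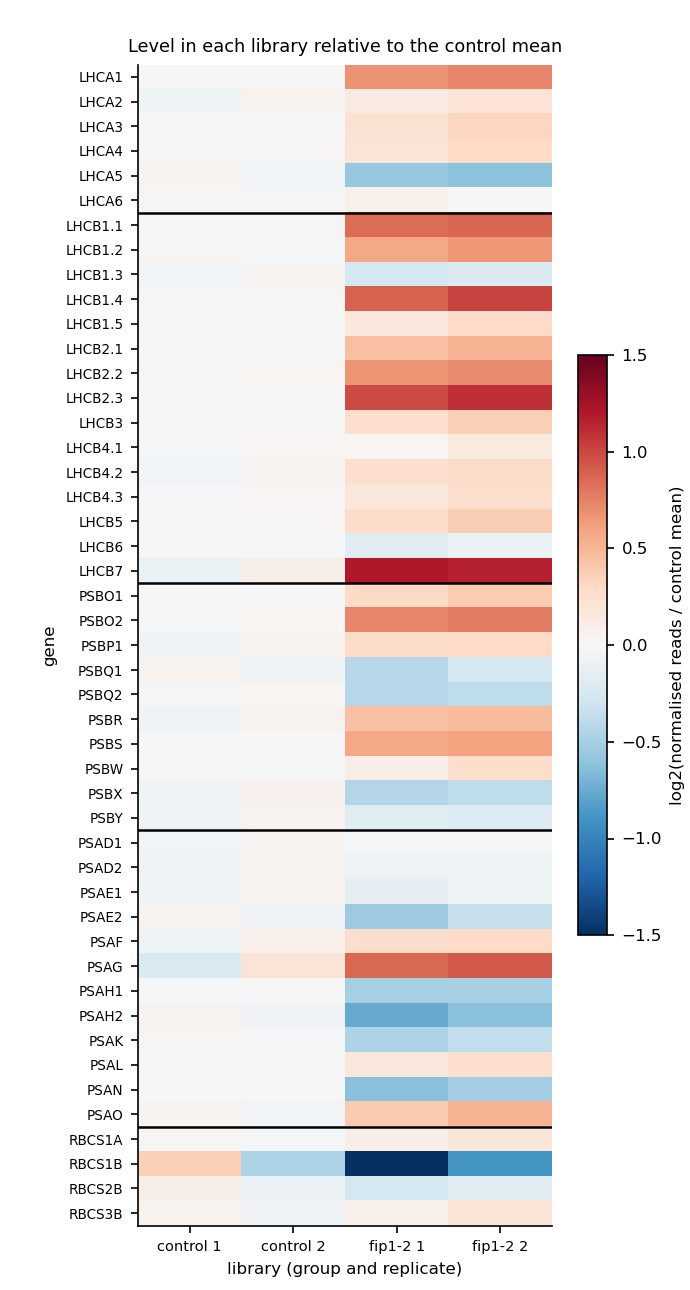
Normalised reads of each gene in each library relative to the control mean (log2 colour scale, red for higher and blue for lower), with lines between gene groups. The 2 fip1-2 libraries carry the same sign for most genes, and RBCS1B differs most between its control libraries, at 2506 and 1399.7 normalised reads.

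All 10 photosystem II subunit genes were called, 6 higher (60%) and 4 lower (40%), against 27% and 26.8% of all genes tested. Their median log2 fold change was 0.24. After quantile normalization 2 of them rose and 4 fell. PSBO, PSBP and PSBQ are the proteins of the oxygen-evolving complex on the lumen side, and they did not move together. PSBO1 (AT5G66570) rose from 86030.1 and 86440.0 normalised reads to 106447 and 111932, and PSBO2 (AT3G50820) from 12372 and 12801 to 20884 and 21552. Their sum rose by 1.32-fold (log2 fold change by limma 0.40 ± 0.07 SE, adjusted p = 0.000251) and came out at 0 after quantile normalization and at 0.19, still called, after removal of the trend with length and GC content. PSBO1 alone lost its call under both (log2 fold changes 0.04 and 0.13, against 0.34). PSBP1 (AT1G06680) rose by 1.22-fold (limma adjusted p = 0.00146) but lost its call after quantile normalization (0.08). Both PSBQ copies fell, PSBQ2 (AT4G05180) from 37126 and 38454 to 28025 and 29006 and PSBQ1 (AT4G21280) from 11049.9 and 10239 to 7936 and 8864. Their sum fell by 0.39 ± 0.06 SE on the log2 scale (limma adjusted p = 5.51e-05), and the share of PSBQ1 in it overlapped between groups, at 22.9% and 21.0% in control and 22.1% and 23.4% in fip1-2.

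PSBS (AT1G44575), the protein that triggers the dissipation of excess light energy as heat, rose by 1.5-fold, from 5854 and 5916 normalised reads to 8778 and 8927 (log2 fold change by limma 0.59 ± 0.05 SE, adjusted p = 1.4e-07). PSBR (AT1G79040), a small subunit associated with the oxygen-evolving complex, went from 88224 and 94694 to 124414 and 126733 (log2 fold change by limma 0.46 ± 0.07 SE, adjusted p = 8.35e-05). Neither gene's groups overlapped, but PSBR lost its call after quantile normalization (0.07). PSBX (AT2G06520), a small membrane subunit, fell from 17626 and 19273 to 13620.0 and 14199 (log2 fold change by limma -0.41 ± 0.06 SE, adjusted p = 2.9e-05), with a value of -0.27 after removal of the trend with length and GC content. PSBY fell and PSBW rose by less, with log2 fold changes of -0.19 and 0.18. Those 2 calls depended on single libraries and on the processing: PSBY lost its call without control replicate 2 (-0.13) or fip1-2 replicate 2 (-0.18) or after removal of the trend (-0.11), and PSBW without control replicate 1 (0.17) or fip1-2 replicate 2 (0.10), after quantile normalization (0.02) or after scaling to the reads of all other genes (0.12). In the other direction, PSBY had a log2 fold change of -0.40 after quantile normalization and PSBW of 0.35 after removal of the trend.

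Of the 12 PSA genes for photosystem I subunits, 4 rose (33.3%) and 5 fell (41.7%), against 27% and 26.8% of all genes tested. So few genes do not set this split apart from those shares. The median log2 fold change of the PSA genes was -0.09, and after quantile normalization 3 rose and 8 fell. PSAD and PSAE form the stromal ridge where ferredoxin docks. PSAD1 and PSAD2 did not pass (log2 fold changes -0.02 and -0.07), and their sum stood at 54094 and 57390.5 normalised reads in control and at 54278 and 54093 in fip1-2, overlapping. The sign of PSAD1 and of the sum turned without control replicate 2 (0.02 and 0.00), and removal of the trend with length and GC content turned PSAD1, PSAD2 and the sum to 0.11, 0.07 and 0.10. After quantile normalization all 3 were called lower (-0.17, -0.24 and -0.17), and PSAD2 also after scaling to the reads of all other genes (-0.14). PSAE2 (AT2G20260) fell from 14173 and 13255 to 9367 and 10811 (log2 fold change by limma -0.45 ± 0.06 SE, adjusted p = 4.36e-05). PSAE1 (AT4G28750), at 6980.1 and 7568 in control and 6562 and 6967 in fip1-2, did not pass (log2 fold change -0.10), except without control replicate 1 (-0.16), after quantile normalization (-0.17) and after scaling to the reads of all other genes (-0.17). The sum of both PSAE genes fell by 0.32 ± 0.06 SE on the log2 scale (limma adjusted p = 0.00035), and by 0.48 after quantile normalization.

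PSAH, PSAL and PSAO lie on the side of photosystem I where LHCII docks during state transitions. Both PSAH copies fell, PSAH2 (AT1G52230) from 9184 and 8536 normalised reads to 5234 and 5722 and PSAH1 (AT3G16140) from 7001 and 7063 to 4962 and 4982. Their sum had a log2 fold change of -0.60 ± 0.05 SE (limma adjusted p = 2.13e-07), the largest fall among the summed families. PSAL and PSAO rose, by 1.15-fold and 1.38-fold (limma adjusted p = 0.00925 and 1.69e-05); PSAL lost its call without fip1-2 replicate 2 (log2 fold change 0.16), and quantile normalization left both called at 0.09 and 0.26. The 3 components of this docking side thus changed in opposite directions at the transcript level.

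PSAG and PSAK are related membrane subunits on the antenna side of photosystem I, and they too moved oppositely. PSAG (AT1G55670) went from 1155 and 1545 normalised reads to 2462 and 2557, a 1.86-fold rise despite the gap between the control libraries (log2 fold change by limma 0.91 ± 0.09 SE, adjusted p = 1.78e-06). PSAK (AT1G30380) fell from 28258 and 27533 to 20284 and 21551 (log2 fold change by limma -0.42 ± 0.06 SE, adjusted p = 1.89e-05). On the lumen side, where plastocyanin delivers electrons, PSAN (AT5G64040) fell from 19317 and 19227 to 12444 and 13381 (log2 fold change by limma -0.58 ± 0.05 SE, adjusted p = 5.25e-07), while PSAF (AT1G31330) rose from 52813 and 58861 to 67241 and 68469 (limma adjusted p = 0.00274). In none of these 4 genes did the groups overlap. PSAF lost its call after quantile normalization (log2 fold change 0.02), and removal of the trend with length and GC content brought the falls of PSAN, PSAH2 and PSAK to -0.37, -0.46 and -0.20, all still called.

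Of the 4 genes for the Rubisco small subunit, 2 fell and none rose, against 26.8% and 27% of all genes tested. The same split held at an unadjusted p under 0.05 in limma. The copies that carry most of the reads did not pass. The split of these 4 genes depended on the processing. A robust variance estimate and removal of the trend with length and GC content each gave 2 higher and 1 lower. DESeq2 gave 1 higher and 1 lower, and edgeR none higher and 2 lower. RBCS1A (AT1G67090) stood at 173943 and 169530.0 normalised reads in control and at 183505 and 194436 in fip1-2 (log2 fold change by limma 0.14 ± 0.08 SE, adjusted p = 0.157), and it held 70.6 ± 1.17% of the reads of the 4 genes in control and 72.3 ± 0.299% in fip1-2. RBCS3B (AT5G38410) was at 50676 and 46847 in control and at 51543 and 55705 in fip1-2 (log2 fold change by limma 0.14 ± 0.07 SE, adjusted p = 0.0938). Both genes were slightly higher in each mutant library without passing. RBCS3B passed without control replicate 1 (0.19) and RBCS1A in DESeq2 (adjusted p = 0.0329). Both passed with the robust variance estimate (adjusted p = 0.0209 for RBCS1A and 0.0328 for RBCS3B) and after removal of the trend (log2 fold changes 0.21 and 0.23).

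RBCS2B and RBCS1B, which neighbour RBCS3B on chromosome 5, fell. RBCS2B (AT5G38420) went from 22275 and 19671 normalised reads to 17481 and 18688 (log2 fold change by limma -0.21 ± 0.06 SE, adjusted p = 0.0114), and the call was lost without control replicate 1 (-0.12) or fip1-2 replicate 1 (-0.16) and after removal of the trend with length and GC content (-0.06), while quantile normalization gave -0.42. RBCS1B (AT5G38430) went from 2506 and 1399.7 to 695 and 1051, the largest fall of the 47 genes (log2 fold change by limma -1.13 ± 0.20 SE, adjusted p = 0.000266). Its control libraries differed widely; without control replicate 1 the log2 fold change was -0.71, and a robust variance estimate and DESeq2 did not call it (adjusted p = 0.198 and 0.0564). The sum of the 3 neighbouring genes overlapped between groups, at 75457 and 67918 in control and 69719 and 75444 in fip1-2 (log2 fold change by limma 0.02 ± 0.07 SE, adjusted p = 0.844), with a sign that turned after quantile normalization (-0.09), after scaling to the reads of all other genes (-0.05), without control replicate 2 (-0.06) and without fip1-2 replicate 2 (-0.04). All 4 together differed by 1.07-fold and did not pass (limma adjusted p = 0.354).

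Counted by units rather than by single genes, with 10 families of copies each replaced by its sum, 34 units remained. Of these, 18 rose, 8 fell and 8 did not pass, where 27% of all genes tested rose and 26.8% fell. The 10 sums, with 3 higher and 3 lower, were near those shares. Among the 10 sums, LHCB1.4 with LHCB1.5, LHCB2 and PSBO rose, PSBQ, PSAE and PSAH fell, and LHCB1.1 to LHCB1.3, LHCB4.1 with LHCB4.2, PSAD and RBCS1B to RBCS3B did not pass. After quantile normalization 1 sum rose, LHCB2, and 4 fell. The sum of LHCB4.1 and LHCB4.2 (log2 fold change 0.17, limma adjusted p = 0.0679) was called by edgeR, DESeq2 and the robust variance estimate (adjusted p = 0.0215, 0.00959 and 0.00592).

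The 47 genes together took 11.6% and 11.7% of all reads in control and 12.4% and 12.9% in fip1-2, higher in both mutant libraries (exact permutation p = 0.333, the smallest that 2 against 2 allows). LHCA genes took 1.56 ± 0.0132% of reads in control and 1.93 ± 0.0601% in fip1-2 (SD, n = 2), LHCB genes 5.73 ± 0.0583% and 6.23 ± 0.191%, PSB genes 1.86 ± 0.0385% and 2.07 ± 0.0353%, PSA genes 1.29 ± 0.00919% and 1.24 ± 0.0270%, and RBCS genes, which overlapped, 1.23% and 1.16% in control and 1.18% and 1.25% in fip1-2. LHCB1.3 alone took 2.18 ± 0.0693% in control and 1.74 ± 0.0181% in fip1-2. The antenna genes other than LHCB1.3 therefore made up more than the net difference between the groups. Per kilobase of transcript, the highest control levels were those of LHCB1.3 (360802 normalised reads per kilobase), LHCB1.5 (215190.0), RBCS1A (135439) and PSBR (116657). In fip1-2 the order of RBCS1A and PSBR was exchanged, at 149030.0 ± 6096 and 160170.0 ± 2092 (SD, n = 2). These levels per kilobase assume reads along the whole transcript, which the labels leave unsettled, since one label names 3' end tags and another a protocol with fragmented mRNA.

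Genes that act with these complexes showed which steps moved alongside. Of 43 other nuclear photosynthesis genes, 24 rose (55.8%) and 8 fell (18.6%), with a median log2 fold change of 0.23. Over all genes tested 27% rose and 26.8% fell, shares that also stand beside the counts by role below. After quantile normalization 22 of the 43 rose and 14 fell. Of 8 electron transport genes, 5 fell, and the other 3 did not pass. Among those that fell, PETE2 (AT1G20340), the main plastocyanin, fell from 45353 and 43787 normalised reads to 31070.2 and 32808, FD2 (AT1G60950), the main leaf ferredoxin, fell by 0.52 and PETC, the Rieske protein of the cytochrome complex, fell by 0.21 on the log2 scale (limma adjusted p = 8.18e-06, 6.46e-07 and 0.00257). Of 3 ATP synthase genes, ATPG rose by 1.42-fold (limma adjusted p = 2e-06), while ATPC1 and ATPD had log2 fold changes of 0.03 each, which became -0.14 and -0.07 after quantile normalization and -0.04 and -0.03 after scaling to the reads of all other genes; ATPD passed as higher after removal of the trend with length and GC content (0.19), and ATPC1 as lower after quantile normalization.

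In the Calvin cycle, 9 of 14 genes rose and 2 fell. The plastid aldolase genes FBA2 (AT4G38970) and FBA1 (AT2G21330) rose by 2.36-fold and 2.1-fold (limma adjusted p = 3.85e-10 and 4.05e-10). CP12-2 (AT3G62410), which encodes a small protein that holds Calvin cycle enzymes in an inactive complex in the dark, fell from 2458 and 2224 normalised reads to 562 and 539.7, the largest change among the 43 genes (log2 fold change by limma -2.08 ± 0.06 SE, adjusted p = 1.05e-11). In chlorophyll synthesis, 10 of 12 genes rose and 1 fell. GUN5 (AT5G13630) and CHLD, subunits of magnesium chelatase, rose by 2.18-fold and 1.6-fold, and CAO (AT1G44446), which makes the chlorophyll b bound by the antenna proteins, went from 1467 and 1502 to 2922 and 2765 (limma adjusted p = 6.1e-10, 3.48e-08 and 3.78e-09). Of 6 regulators, 4 rose, among them GLK1 and GLK2, transcription factors of chloroplast development (1.5-fold and 1.67-fold), and GUN1, a plastid protein of signalling to the nucleus (1.58-fold; limma adjusted p = 2.4e-06, 9.13e-08 and 5.53e-08). Removal of the trend with length and GC content lowered the log2 fold change of GUN5 from 1.12 to 0.60 and that of GLK1 from 0.59 to 0.29, both still called.

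**Figure D4:**
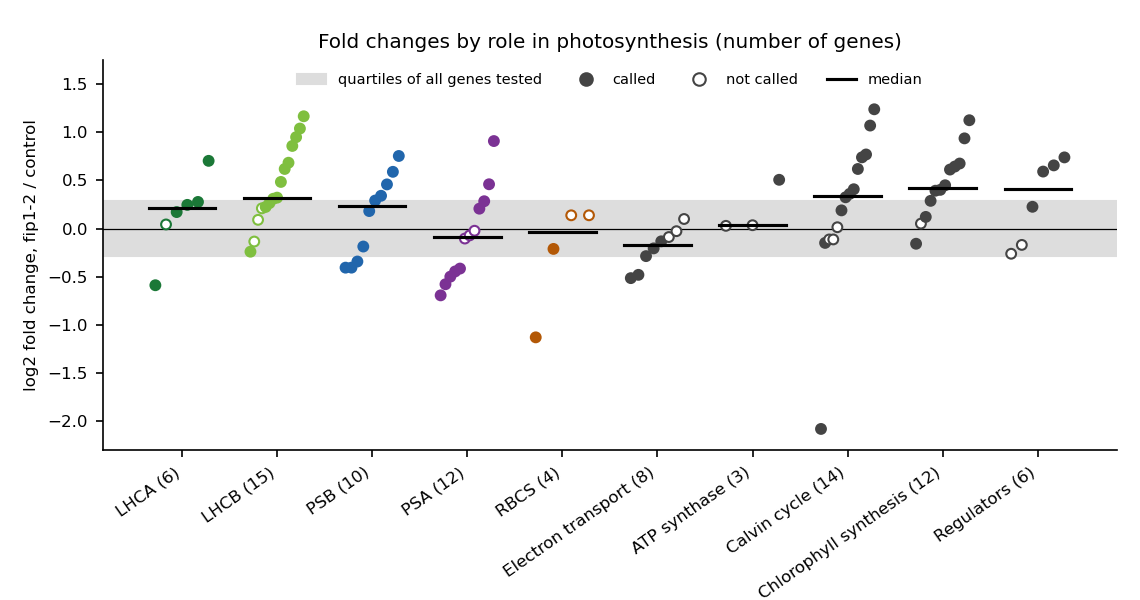
Log2 fold change (fip1-2 over control) of each gene by role, with the number of genes in brackets, a bar at the median, open circles for genes that did not pass, and a grey band between the quartiles of all genes tested. Chlorophyll synthesis and LHCB have medians of 0.43 and 0.32, and electron transport the lowest at -0.17.

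Across the set, fold change was correlated with transcript length, but not evenly within its groups. The 47 genes have short transcripts, with a median of 1210 bases against 1748 over all genes tested, and the log2 fold change rose with length in both, with a Spearman correlation across genes of 0.378 over the 47 and 0.299 over 19819 genes tested that have a length. Within the groups the Spearman correlation was 0.486 for LHCA, 0.136 for LHCB, 0.564 for PSB, 0.210 for PSA and -0.2 for RBCS genes. The 47 genes also had a higher GC content, with a median of 43.8% against 41.3% over all genes tested. Fold change had a Spearman correlation with GC content of 0.243 over the 47 and 0.167 over all genes tested. Within the groups it was 0.257 for LHCA, -0.521 for LHCB, 0.236 for PSB, 0.382 for PSA and 0.8 for RBCS genes. Genes are not independent replicates, and these values are descriptions. Of 13 genes with transcripts under 1000 bases, 4 rose (PSBR, PSBW, PSAG and PSAO) and 7 fell, where over all genes tested of that length 13.3% rose and 42.4% fell. Of 34 longer ones, 21 rose and 6 fell, against 28.9% and 24.7%. PSA genes had the shortest transcripts of the 5 groups, with a median of 887.5 bases, and LHCB genes the longest, with 1282. The part of length or of GC content in these differences was not tested beyond the removal of a trend with both together. That removal does not separate length from GC content. After it 23 of the 47 genes rose and 14 fell.

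**Figure D5:**
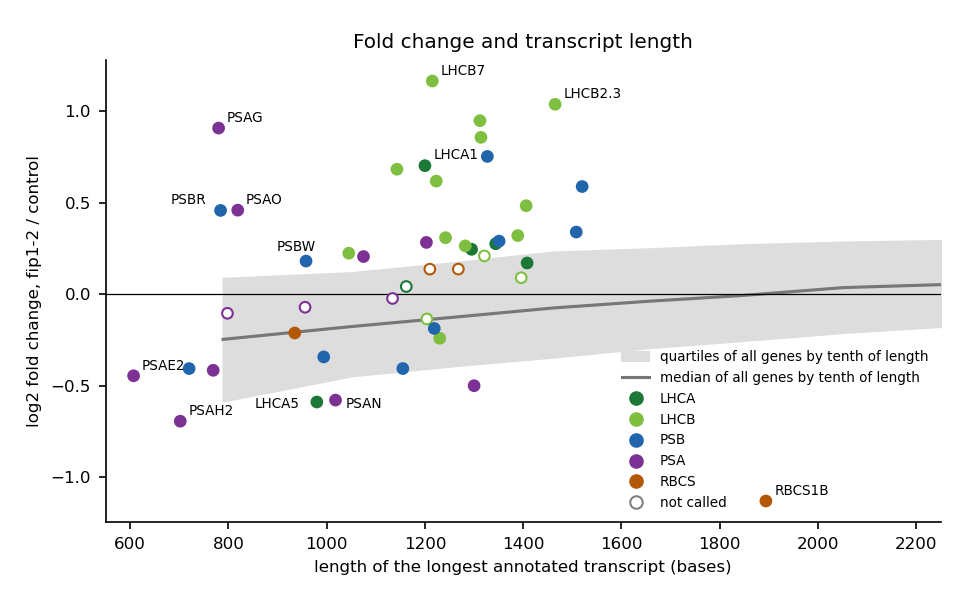
Log2 fold change (fip1-2 over control) against the length of the longest annotated transcript in bases for the 47 genes, with the median and quartiles of all genes tested in bins of length in grey. Short PSA genes such as PSAE2 and PSAH2 lie below 0, whereas PSAG, PSAO and PSBR lie above 0 at similar lengths.

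Close copies can exchange reads in counting, and the deposited values cannot show how such reads were assigned. Of the 47 genes, 24 share no stretch of 50 bases with any other annotated transcript. Of these, 13 rose (54.2%), 6 fell (25%) and 5 did not pass, much the same split as in the whole set. Over all genes tested 27% rose and 26.8% fell. Among the copies, LHCB2.1 shares 22.7% of its 50-base stretches with LHCB2.2, LHCB1.3 shares 14.9% with LHCB1.1 and 3.56% with LHCB1.2, and RBCS2B shares 17.0% with RBCS1B. LHCA2 shares 8.76% with AT5G28450, which was listed at 0 in every library. The protocol names no step that keeps strand, so reads of genes that overlap on opposite strands cannot be told apart either. That concerns LHCB1.5 most, whose whole transcript is covered on the opposite strand by AT2G08665. That gene is not among the genes listed with values, so its own level is not known. It also concerns PSAG and PSAH1, which share 58.8% and 49.2% of their stretches with AT1G55673 and AT3G16130, both listed at 0. LHCB2.3 shares 38.6% with AT3G27700, which stood at 744 and 759 normalised reads in control and at 695 and 663 in fip1-2. PSAE1 shares 29.1% with AT4G28755, listed at 0.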

How the data were processed

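Polyadenylated RNA of whole seedlings was sequenced in 2 control and 2 fip1-2 libraries. The submitters' processing notes name HISAT2, HTSeq, edgeR, FastQC and CASAVA 1.4 without role or order, with build and annotation not given in the sources used here. For each gene the deposited signal is an HTSeq read count scaled by the authors with a single factor for each library, per the file headers and the values. Dividing by the value of 1 read gave whole reads for 100% of values (within 1e-06). The spread between libraries limits the precision for all genes, and counting error chiefly for those with few reads.

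Values were used as deposited. The test, on genes with a mean of at least 10, was limma 3.58.1 (variance trend, R 4.3.3) on log2(value + 2), two-sided, genotype as the only term, Benjamini-Hochberg adjustment over 19931 genes, threshold 0.05. edgeR 4.0.16 on the recovered reads called 10731 genes against 10726, and DESeq2 1.42.0 called 7232. Copies were summed before a further fit. The 2 libraries of a group differed beyond sampling noise, with a chi-square of 2.97 per gene for control and 2.72 for fip1-2, and were counted separately. Alternatives were other pseudocounts and filters, quantile normalization, scaling to the reads of all other genes, robust variance, a length and GC trend (spline), the replicate number as a block, and leaving out each library.

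Members and lists were chosen with earlier results of these data known. All 47 members may be named, and from each of 5 lists of other photosynthesis genes the 3 with the smallest p; genes that share sequence or overlap with members were named after their values were seen. Names, lengths and shared 50-base stretches come from RefSeq (TAIR10.1), which held all 47 members. Coordinates and sequences are not given because the build behind the values is not named.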

Additional observations from a re-analysis of the deposited data

How the results depend on the processing

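With 2 libraries a group, small differences rest on little, and weak genes such as LHCB4.3 and LHCB7 have about 100 reads in control. The number of members that rose ran from 20 to 24 on leaving out single libraries, and the number that fell from 11 to 12; the summed families that rose and fell stayed at 3 each. Other photosynthesis genes that rose ran from 22 to 23 and those that fell from 5 to 9, with 5 reached without fip1-2 replicate 1. Under the other alternatives apart from quantile normalization, 22 to 27 members rose and 11 to 16 fell. edgeR kept all 38 calls, DESeq2 and the robust variance lost RBCS1B, and the absence of a filter lost LHCA2, LHCB1.3, LHCB1.5, PSBW and RBCS2B.

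Quantile normalization gave 14 members higher and 17 lower, 1 summed family higher, and 14 other photosynthesis genes lower. It gives each rank the same value in all libraries, so genes that keep their rank come out at 0. It reversed the log2 fold changes of LHCA2 (-0.056), LHCA6 (-0.0030), LHCB4.1 (-0.12), ATPC1 (-0.14), ATPD (-0.066) and summed RBCS1B to RBCS3B (-0.087). Scaling to the reads of all other genes reversed LHCA6 (-0.022), ATPC1 (-0.036), ATPD (-0.030), summed LHCB1.1 to LHCB1.3 (-0.063) and summed RBCS1B to RBCS3B (-0.046); the median over all genes moved from -0.00 to -0.07 with it. Removing the trend with length and GC content reversed LHCB1.5 (-0.49), LHCB4.1 (-0.23), LHCB4.2 (-0.028), PSAD1 (0.11), PSAD2 (0.071) and the sums of LHCB1.1 to LHCB1.3 (-0.21), LHCB1.4 and LHCB1.5 (-0.061), LHCB4.1 and LHCB4.2 (-0.14), PSAD (0.10) and all LHCB1 (-0.15); the cause was not tested.

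On leaving out 1 library at a time, the log2 fold change ran from -0.062 to 0.016 for PSAD1, from -0.083 to 0.0024 for summed PSAD, from -0.033 to 0.035 for summed LHCB1.1 to LHCB1.3 and from -0.057 to 0.095 for summed RBCS1B to RBCS3B. The group difference in log2 ratio ran from -0.017 to 0.14 for PSBQ1 to PSBQ2 and from -0.038 to 0.038 for RBCS3B to RBCS1A.

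With the replicate number as a block, 23 members rose and 12 fell, and LHCA2, LHCB1.3 and LHCB1.5 lost their calls. Across genes, the deviations of same-numbered libraries from their group were not correlated (correlation -0.0117). With only 2 libraries in each group, this value cannot decide whether the replicate numbers pair the libraries.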

Other observations

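Genes that overlap a member were looked at after the values of the members were known. In the annotation, 17 of the 47 members overlap 21 other genes, 19 of these on the opposite strand. Of 16 tested, 4 rose and 6 fell, against 27% and 26.8% of all genes tested. So few genes do not set these counts apart from those shares. ROPGEF11 (AT1G52240), on the opposite strand of PSAH2, went from 25.9 and 31.1 normalised reads in control to 420.0 and 357 in fip1-2 (log2 fold change 3.68), while PSAH2 itself fell by 0.69 on the log2 scale. RECA1 (AT1G79050), on the opposite strand of PSBR, went from 449.6 and 468 to 252 and 212, while PSBR rose. AT4G28740, on the opposite strand of PSAE1, went from 341 and 341 to 176 and 142, while PSAE1 was not called. AT1G45545 rose while LHCA5, on the other strand, fell. Other opposite-strand genes moved with their member: AT1G06690 rose with PSBP1, and AT2G20270 and AT5G64030 fell with PSAE2 and PSAN.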
